A study of Mus musculus with 6 samples.

Results

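Genes whose symbol starts with Ugt2b or Gsta and a digit were taken from a table of colon RNA read counts. They made up 4 of its 2033 rows and stand for 5 genes: a row of Ugt2b36, a row that joins Ugt2b5 with Ugt2b38, a row of Gsta1 and a row of Gsta2. The choice rests on the gene name alone. The colons came from mice exposed over a long term to PFOA (perfluorooctanoic acid, a fluorinated surfactant that persists in the body) and from control mice, with 3 RNA sequencing libraries per group. Per the labels, 6 mice per group were frozen for sequencing, and the labels give no dose, exposure time, sex, age, strain or part of the colon. Which mice entered which library is not stated, so p-values measure the spread between libraries, which may be technical.

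UDP-glucuronosyltransferases of the Ugt2b family sit in the membrane of the endoplasmic reticulum and attach glucuronic acid to steroids, bile acids, fatty acids and drugs, which makes them more soluble and easier to excrete. Alpha-class glutathione transferases (Gsta) are soluble enzymes that attach glutathione to reactive electrophiles and reduce lipid peroxides. Both families are abundant in liver and are also found in gut epithelium, where they act on compounds from food, bile and microbes. PFOA itself is regarded as resistant to metabolism.

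In PFOA colon the Ugt2b rows were higher and the Gsta rows lower than in control colon. The joined row of Ugt2b5 and Ugt2b38 was 216-fold higher and that of Ugt2b36 was 18.9-fold higher. The Gsta1 row was 9.70-fold lower and the Gsta2 row 2.36-fold lower. The table holds only rows that differ between the groups: no row had a log2 ratio of mean counts between -1.08 and 0.92. All 4 rows passed edgeR's quasi-likelihood test at an adjusted p under 0.05, 2 higher and 2 lower, against 100% of the 1608 tested rows of the table (50.0% higher and 50.0% lower). Passing the test is therefore no result about these genes, and their direction, size and sequence are what the values below describe.

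The sequences matter because both families consist of recent copies, so that a read of one gene may be assigned to another. The first 90 coding bases of the genes in question, read from GENCODE M21 transcripts (mm10), show how alike the copies are. For the Ugt2b genes, capitals mark bases that differ from Ugt2b5.
Ugt2b5: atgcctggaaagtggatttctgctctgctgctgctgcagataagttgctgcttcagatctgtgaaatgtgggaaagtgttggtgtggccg
Ugt2b38: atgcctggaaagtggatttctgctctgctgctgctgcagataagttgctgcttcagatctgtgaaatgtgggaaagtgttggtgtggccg
Ugt2b37: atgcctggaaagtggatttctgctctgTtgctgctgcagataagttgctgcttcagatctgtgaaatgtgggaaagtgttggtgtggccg
Ugt2b36: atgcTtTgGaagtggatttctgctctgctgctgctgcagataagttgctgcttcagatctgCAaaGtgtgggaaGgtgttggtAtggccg

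Over this stretch Ugt2b38 did not differ from Ugt2b5, Ugt2b37 differed at 1 base and Ugt2b36 at 8 bases. All 4 genes lie on the minus strand of chromosome 5, with the first coding base at 87140306 for Ugt2b5, 87424171 for Ugt2b38, 87254770 for Ugt2b37 and 87092524 for Ugt2b36. Over the whole coding sequence of 1593 bases, Ugt2b5 and Ugt2b38 were identical at 97.1% of aligned bases, Ugt2b5 and Ugt2b37 at 94.7%, and Ugt2b5 and Ugt2b36 at 88.5%. For the alpha-class glutathione transferases, capitals mark bases that differ from Gsta1.
Gsta1: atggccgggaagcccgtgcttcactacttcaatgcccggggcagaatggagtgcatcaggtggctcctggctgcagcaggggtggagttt
Gm3776: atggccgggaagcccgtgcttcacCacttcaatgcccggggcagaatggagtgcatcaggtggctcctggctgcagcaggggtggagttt
Gsta2: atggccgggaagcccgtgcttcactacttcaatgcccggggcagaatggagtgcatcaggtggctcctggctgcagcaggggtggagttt
Gm10639: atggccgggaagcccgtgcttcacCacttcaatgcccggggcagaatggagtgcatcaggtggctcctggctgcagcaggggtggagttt

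Gm3776 and Gm10639 are protein-coding neighbours of Gsta1 and Gsta2 on chromosome 9 that fall outside the name rule. They are shown here, after their values were seen, because their transcripts are near-copies. Gsta1 and Gsta2 did not differ in the bases shown, while Gm3776 and Gm10639 each differed at 1 base. Over the whole coding sequence Gsta1 differed from Gm3776 at 2 of 672 bases, from Gsta2 at 14 of 669 aligned bases and from Gm10639 at 18 of 669 aligned bases. The first coding base lies at 78232240 (plus strand) for Gsta1, 78258712 (plus) for Gm3776, 78294806 (plus) for Gm10639 and 78341916 (minus) for Gsta2.

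To put the likeness on the scale of sequencing reads, each transcript was cut into all windows of a given length and each window was looked up in the transcripts of all other genes. Of 100-base windows, 81.8% of those of Gsta1 occurred whole in another gene's transcript, most of them in Gm3776 (71.3%). For Gsta2 the share was 35.0%, with Gm10639 as the closest source (24.4%). Ugt2b5 and Ugt2b38 shared 24.7% and 24.2% of their windows, all of them with each other and 1.08% and 1.06% with Ugt2b37 as well. Since Ugt2b5 and Ugt2b38 were counted in 1 row, windows they share with each other stay within it. Ugt2b36 shared 0 of 1789 windows of this length and 6 of 1839 windows of 50 bases. The sources used here do not give the read length or say how reads that match several places were handled.

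**Figure D1:**
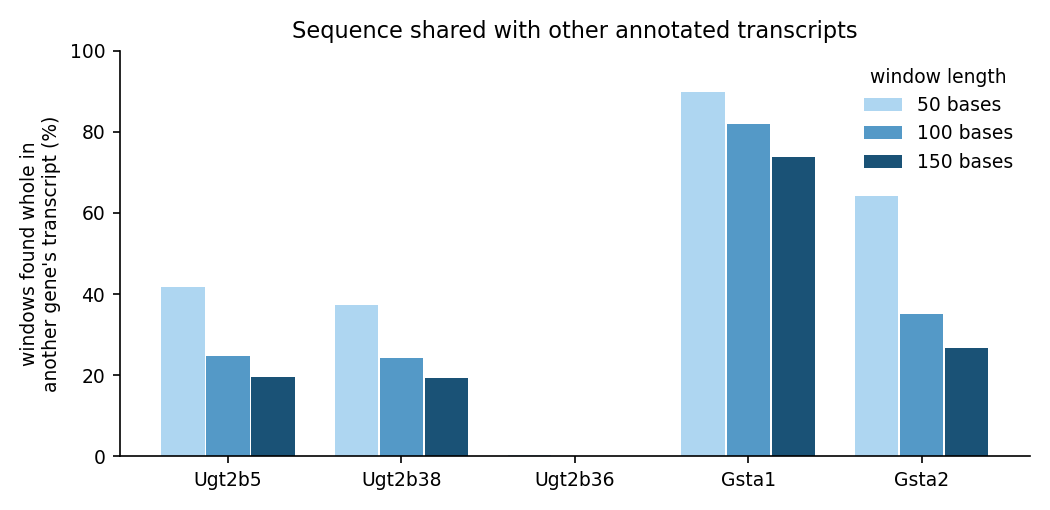
Share of windows (y axis, %) of each member transcript that occur whole in a transcript of another gene, for windows of 50, 100 and 150 bases (bars). Gsta1 stands highest, at 89.7%, 81.8% and 73.7%, and Ugt2b36 lies at 0.33% for 50 bases and at 0 for longer windows.

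The joined row of Ugt2b5 and Ugt2b38 (assembled locus MSTRG.17444, mm10) spans chr5:87124960-87424203 on the minus strand, a stretch of 299244 bases that also encloses Ugt2b37 and Ugt2a3. The deposited length of the row, 3749 bases, equals the exon bases of Ugt2b5 and Ugt2b38 added together, so the exons of the 2 enclosed genes are not part of that length. The row had 618, 480 and 580 counts in the PFOA libraries 1, 2 and 3, and 2, 6 and 0 counts in the control libraries 1, 2 and 3. Every PFOA library was high and every control library near 0, with no overlap between the groups. Both Ugt2b rows were higher without overlap and both Gsta rows lower without overlap; among all 2033 rows of the table, 97.1% had groups that did not overlap (48.6% higher and 48.5% lower in PFOA), so this too is the background of the table. The level was 275.9 ± 52.9 CPM in PFOA and 1.29 ± 1.48 CPM in control (SD, n = 3 each). CPM here is relative to the counts of the tested rows after TMM scaling, not to all sequenced reads, since the depth of the libraries is unknown.

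The fitted log2 fold change of this row was 7.69 ± 0.69 (SE, 3 libraries per group; edgeR adjusted p = 1.21e-04), the 7th highest of 1608 tested rows. Its size rests on 8 counts in the control group: the ratio of 216 between the scaled sums has a 95% Clopper-Pearson interval from 109 to 502, which covers counting error only. The log2 value was 8.98 without control replicate 2, which holds 6 of the 8 counts, and 6.98 without control replicate 3, which holds none. How the reads divide between Ugt2b5 and Ugt2b38 cannot be read from a joined row.

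The Ugt2b36 row (ENSMUSG00000070704.10, chr5:87065927-87092548, minus strand) lies beside the joined row. It had 32, 44 and 34 counts in PFOA libraries and 1, 3 and 2 counts in control libraries. The groups did not overlap here either, at 17.9 ± 2.51 CPM in PFOA and 0.949 ± 0.483 CPM in control (SD, n = 3 each). The log2 fold change was 4.16 ± 0.44 (SE, 3 libraries per group; edgeR adjusted p = 2.47e-04), the 76th highest of the tested rows. The ratio of scaled sums was 18.9, with a 95% counting interval from 8.41 to 52.6. Reads of the joined row could be counted for Ugt2b36 in few places, as the window shares above show.

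The 5′ flanks of the genes in the 2 Ugt2b rows are shown because both rows were higher in PFOA; the joined row does not tell whether Ugt2b5, Ugt2b38 or both were. They are the last 100 bases before the start of the RefSeq transcript (GRCm38.p6, minus strand of chromosome 5), and capitals mark the nuclear receptor half-site AGGTCA, looked for on both strands.
Ugt2b5: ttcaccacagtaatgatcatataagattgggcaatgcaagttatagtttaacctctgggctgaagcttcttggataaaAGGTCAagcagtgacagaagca
Ugt2b38: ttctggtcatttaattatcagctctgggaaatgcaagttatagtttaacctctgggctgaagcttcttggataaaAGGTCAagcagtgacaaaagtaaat
Ugt2b36: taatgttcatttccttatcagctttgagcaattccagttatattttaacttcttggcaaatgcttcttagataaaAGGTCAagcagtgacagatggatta

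These stretches lie at chr5:87140341-87140440 for Ugt2b5, chr5:87424204-87424303 for Ugt2b38 and chr5:87092556-87092655 for Ugt2b36. The half-site begins 22 bases before the start in Ugt2b5 and 25 bases before it in Ugt2b38 and Ugt2b36. Within 250 bases before the start it was found in 5 of 7 Ugt2b genes, which include Ugt2b35 and Ugt2b37, and in 14.0% of 32851 mouse promoters of the same length. Over those 250 bases Ugt2b5 and Ugt2b38 were identical at 88.3% of aligned bases, Ugt2b38 and Ugt2b37 at 94.9%, and Ugt2b5 and Ugt2b36 at 69.6%. Half-sites in copies of a gene family are not independent, so 5 of 7 beside 14.0% is no measure of enrichment. The antioxidant response element core TGACNNNGC, the HNF1 half-site GTTAAT and the CDX site TTTATNG, also looked for on both strands, were found in 0 of the 7 Ugt2b windows, so they do not overlap the half-site. They occur in 10.2%, 6.43% and 9.81% of all promoters. In the same window Gsta1 held none of the 4 motifs, and Gsta2 held a CDX site 246 bases before its start. A match of letters is not a binding site, and these windows are short. Only exact matches to the given letters were counted, so sites with other letters would be missed.

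The Gsta1 row (assembled locus MSTRG.23993, chr9:78230656-78242684, plus strand) had 1, 3 and 4 counts in PFOA libraries and 25, 24 and 31 counts in control libraries. Every PFOA library lay below every control library. The level was 1.27 ± 0.676 CPM in PFOA and 12.6 ± 1.28 CPM in control (SD, n = 3 each). The log2 fold change was -3.23 ± 0.43 (SE, 3 libraries per group; edgeR adjusted p = 5.76e-04). The control-to-PFOA ratio of scaled sums was 9.70, with a 95% counting interval from 4.69 to 23.2. Gsta1 counts were low in both groups, and the authors' deposited annotation gives the Gm3776 mRNA as the best nucleotide match of this row.

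The Gsta2 row (assembled locus MSTRG.23997, chr9:78331018-78355788, minus strand) had 39, 15 and 29 counts in PFOA libraries and 60, 75 and 67 counts in control libraries. The groups did not overlap, but PFOA replicate 1 lay much closer to the control libraries than PFOA replicate 2. The level was 13.8 ± 6.93 CPM in PFOA and 32.0 ± 3.78 CPM in control (SD, n = 3 each). The log2 fold change was -1.21 ± 0.42 (SE, 3 libraries per group; edgeR adjusted p = 0.0218), the smallest in size of the 4 rows. The call was lost in 3 fits that left out a library: PFOA replicate 2 (log2 fold change -0.84, edgeR adjusted p = 0.0679), PFOA replicate 3 (-1.18, edgeR adjusted p = 0.0583) and control replicate 2 (-1.14, edgeR adjusted p = 0.062). Gsta2 counts were 39, 5 and 7.25 times those of Gsta1 in PFOA libraries and 2.40, 3.13 and 2.16 times in control libraries, and the first of these ratios rests on 1 Gsta1 count.

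**Figure D2:**
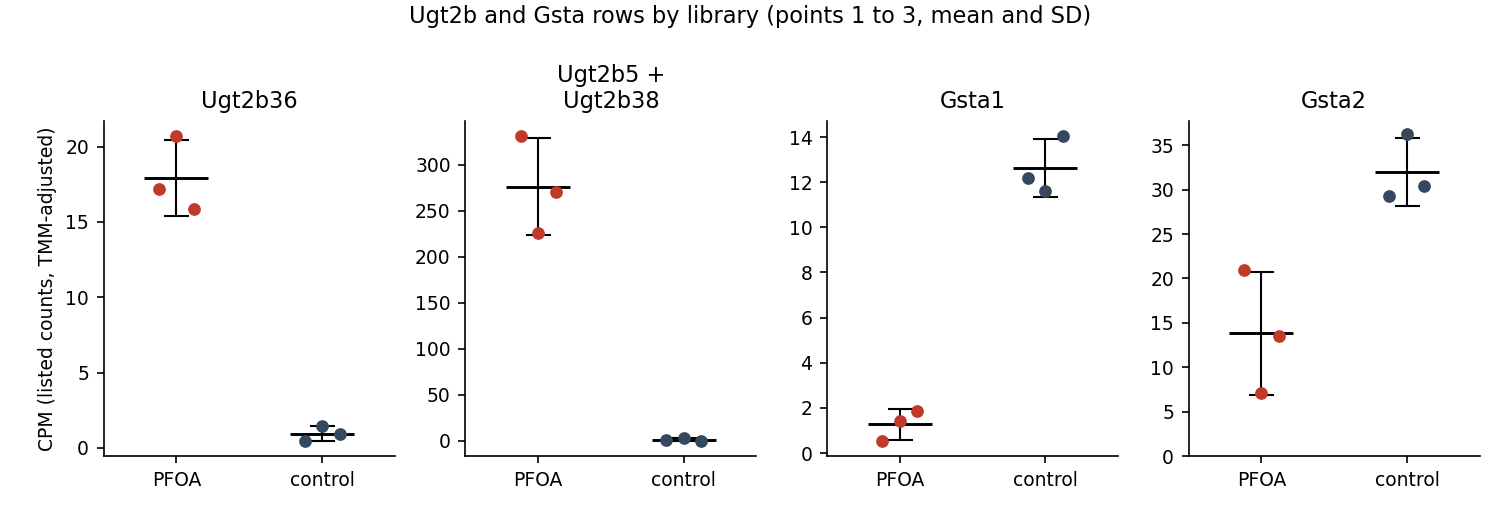
Level of the 4 rows in each library (y axis, CPM of the tested rows after TMM scaling; linear axes that differ between panels), for PFOA and control; points are libraries 1 to 3 from left to right, bars the mean and SD. In each panel the groups are apart: the Ugt2b rows lie higher in the PFOA libraries and the Gsta rows lower, with Gsta2 spread over 7.06 to 20.9 CPM in PFOA libraries.

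The near-copies of Gsta1 and Gsta2 moved in the same direction as these 2 rows. Gm10639, which encodes a glutathione transferase close to Gsta2, had 0, 8 and 2 counts in PFOA libraries and 47, 34 and 36 in control libraries (log2 fold change -3.48 ± 0.71, SE, 3 libraries per group; edgeR adjusted p = 0.00264). Gm3776, the near-twin of Gsta1, had 37, 32 and 35 counts in PFOA libraries and 83, 94 and 73 in control libraries (log2 fold change -1.22 ± 0.30, SE, 3 libraries per group; edgeR adjusted p = 0.00574). Along the chromosome the order is Gsta1, Gm3776, Gm10639 and Gsta2, and all 4 rows were lower in PFOA, by a log2 value between -3.48 and -1.21.

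Because a read of one of these 4 genes may be assigned to another, they were also added up, a choice made after seeing the data. The sum was 77, 58 and 70 counts in PFOA libraries and 215, 227 and 207 in control libraries. The log2 fold change of the sum was -1.61 ± 0.27 (SE, 3 libraries per group; edgeR adjusted p = 0.00127). Each of the 4 rows was lower without overlap, so the sum had to be lower too, and Gsta4, the next alpha-class gene, is not in it. The share of the sum that was counted for Gsta1 or Gsta2 depends on how shared reads were assigned, which was not tested.

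**Figure D3:**
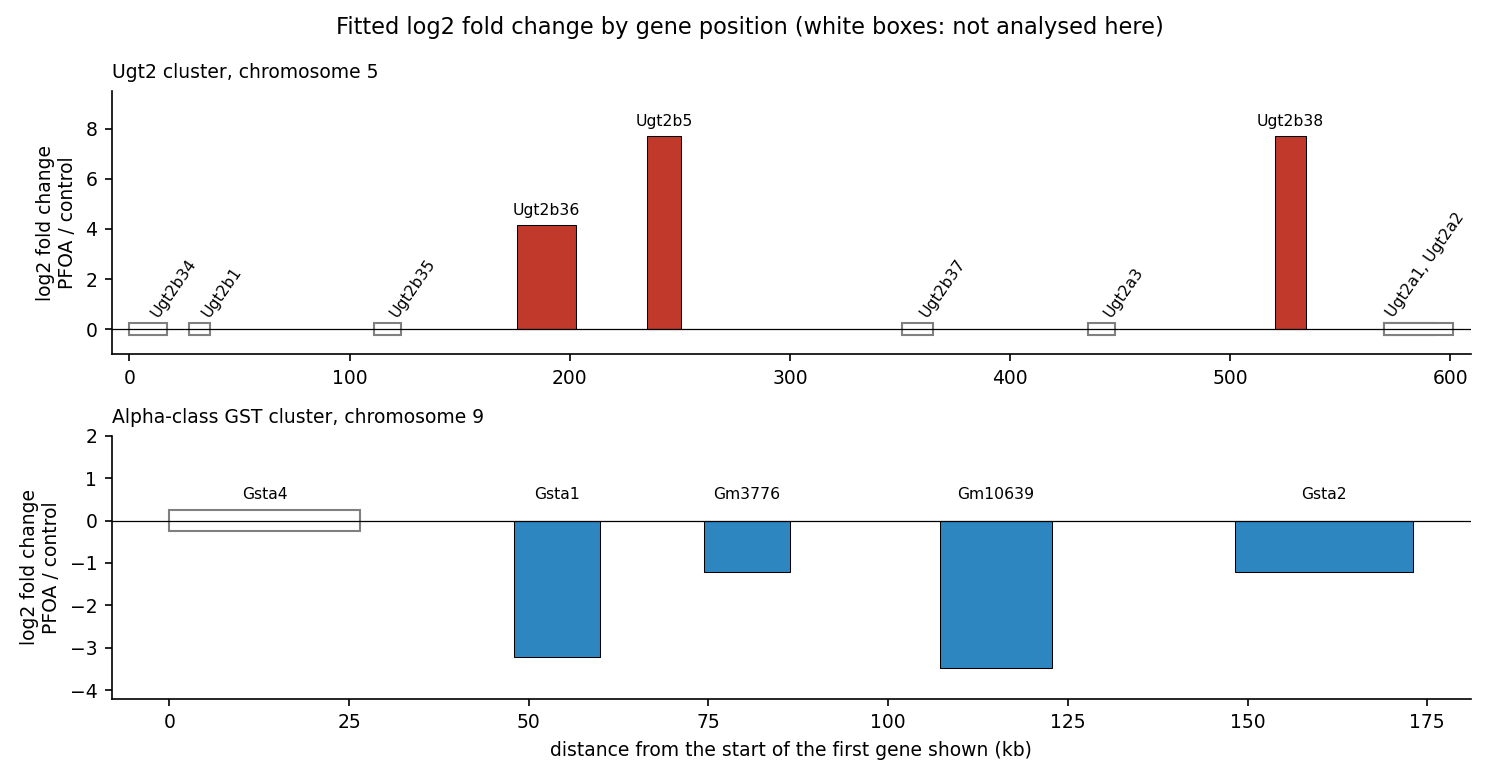
Fitted log2 fold change of PFOA over control (y axis) for the genes of the Ugt2 cluster on chromosome 5 (top) and the alpha-class cluster on chromosome 9 (bottom), drawn at their distance from the first gene shown (x axis, kb). Ugt2b5 and Ugt2b38 share 1 row and 1 value (7.69), all 4 blue genes are negative (-3.48 to -1.21), and white boxes are genes not analysed here.

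GENCODE M21 annotates 7 Ugt2b genes and 4 Gsta genes. Of these, 3 Ugt2b genes and 2 Gsta genes have a row, and Ugt2b1, Ugt2b34, Ugt2b35, Ugt2b37, Gsta3 and Gsta4 are not analysed here. A table limited to rows that differ says nothing about their level. Lengths of the other member rows also equalled the annotated exon bases of their gene (2059 bases for Ugt2b36, 956 for Gsta1 and 1177 for Gsta2). Levels are therefore also given per length, within limits stated below.

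Per kilobase of row length, the joined Ugt2b row stood first of 4 in PFOA and last in control, while Gsta2 stood above Gsta1 and Ugt2b36 in both groups. In PFOA libraries the joined Ugt2b5 and Ugt2b38 row stood highest, at 73.6 ± 14.1 CPM per kb, followed by Gsta2 at 11.8 ± 5.88, Ugt2b36 at 8.70 ± 1.22 and Gsta1 at 1.33 ± 0.707 CPM per kb (SD, n = 3). The libraries of Gsta2 (6.00 to 17.8 CPM per kb) and Ugt2b36 (7.70 to 10.1 CPM per kb) overlapped, so these neighbours in the order did not differ beyond their spread. In control libraries Gsta2 led at 27.2 ± 3.21 CPM per kb, followed by Gsta1 at 13.2 ± 1.34, Ugt2b36 at 0.461 ± 0.235 and the joined Ugt2b row at 0.345 ± 0.394 CPM per kb (SD, n = 3). There, too, the 2 Ugt2b rows overlapped with each other. Per kilobase, the joined row held 5.99 to 10.6 times the counts of Ugt2b36 in PFOA libraries and 0 to 1.10 times in control libraries. The control ratios rest on 2, 6 and 0 counts against 1, 3 and 2. The length of the joined row covers 2 genes, so its level per kilobase would be higher if only 1 were expressed. The Gsta levels depend on how shared reads were assigned, which was not tested. In bulk colon, fewer cells of a type and less RNA per cell cannot be told apart.

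Other genes of conjugation were taken from 8 lists made with earlier results of these data known. They hold 152 genes, of which 33 have a row, in 25 rows; 24 rows were tested, and 18 were higher and 6 lower in PFOA. With 100% of all tested rows called (50.0% higher and 50.0% lower), these counts and those by list below describe the listed rows and are no evidence about the pathway. Other glucuronosyltransferase genes were higher in 2 of 2 rows. A row that joins 9 Ugt1a genes, which share most exons by design of the locus, had 29525, 20457 and 21274 counts in PFOA libraries and 8236, 9295 and 8721 in control libraries (log2 fold change 1.51, edgeR adjusted p = 0.00193). Ugt8a, which makes galactosylceramide and is no drug-conjugating enzyme, had a log2 fold change of 3.89 (edgeR adjusted p = 0.00147), with 41, 255 and 245 counts in PFOA libraries and 15, 9 and 12 in control libraries.

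Of 24 genes in the list of other glutathione transferases, 2 have a row, 1 higher and 1 lower. Gstk1, of the mitochondrial and peroxisomal kappa class, had 784, 580 and 573 counts in PFOA libraries and 197, 214 and 187 in control libraries (log2 fold change 1.76, edgeR adjusted p = 8.26e-04). Gstm6, of the mu class, had 64, 53 and 62 counts in PFOA libraries and 172, 192 and 181 in control libraries (log2 fold change -1.55, edgeR adjusted p = 0.00133). The mu and kappa classes are each seen through 1 gene here, so no pattern by class can be read from these rows.

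Genes that supply the conjugated groups were higher in 3 of 3 rows. Ugdh, the enzyme that makes UDP-glucuronate, is joined with 2 other genes in a row with a log2 fold change of 1.003 (edgeR adjusted p = 0.00369). Slc35d1, which carries UDP-sugars into the endoplasmic reticulum, had a log2 fold change of 1.52 (edgeR adjusted p = 5.99e-04). Gclm, the modifier subunit of the enzyme that starts glutathione synthesis, shares its row with a predicted gene and had a log2 fold change of 1.05 (edgeR adjusted p = 0.00171). The genes of glutathione conjugate breakdown had 1 row, joining Nat8f4 and Nat8f1, and it was lower (log2 fold change -1.53, edgeR adjusted p = 9.00e-04).

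Sulfate, acetyl, methyl and acyl transfer genes were higher in 3 and lower in 1 of 4 tested rows. Sult1d1, a sulfotransferase that lies next to the Ugt2 cluster, had 7001, 3308 and 3056 counts in PFOA libraries and 888, 1543 and 1350 in control libraries (log2 fold change 1.91, edgeR adjusted p = 0.00384). Papss2, which makes the sulfate donor, was higher as well (log2 fold change 1.69, edgeR adjusted p = 0.00478). Sult1a1, a phenol sulfotransferase, had a log2 fold change of 0.99 (edgeR adjusted p = 0.0056). Sult1c1 was not tested, with 1, 1 and 6 counts in PFOA libraries and 0 in every control library. Baat, which joins bile acids with taurine, was lower (log2 fold change -2.12, edgeR adjusted p = 0.0135). Transporters that may carry conjugates or organic ions were higher in 2 of 2 rows, Slc22a3 and Slco4a1 (log2 fold change 2.57 and 1.36, edgeR adjusted p = 0.00217 and 0.00255).

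Redox genes commonly grouped with the transcription factor NRF2 were higher in 4 and lower in 1 of 5 rows. Akr1c18, a hydroxysteroid dehydrogenase, had 80, 161 and 160 counts in PFOA libraries and 4, 8 and 9 in control libraries (log2 fold change 4.26, edgeR adjusted p = 2.19e-04). Aldh1a1 and Aldh3a1, both aldehyde dehydrogenases, went opposite ways, with log2 fold changes of 2.17 and -2.19 (edgeR adjusted p = 8.25e-04 and 0.00175), and Akr1c19 was higher (1.54, edgeR adjusted p = 0.00133). Nqo1, a quinone reductase, had 1014, 538 and 594 counts in PFOA libraries and 114, 247 and 149 in control libraries (log2 fold change 2.15, edgeR adjusted p = 0.00224). Among regulators, 3 rows were higher and 2 lower, the higher ones being Ppara, Nr1h4 and Cdx2. The nuclear receptor genes Ppara and Nr1h4 had log2 fold changes of 2.43 and 1.72 (edgeR adjusted p = 1.13e-04 and 5.76e-04). The deposited lengths of these rows, 48027 and 55440 bases, were not compared with exon lengths, nor were those of the other listed rows. Nr1i3, which encodes the drug-sensing receptor CAR, had 62, 16 and 7 counts in PFOA libraries and 182, 175 and 162 in control libraries (log2 fold change -2.50, edgeR adjusted p = 0.011). Foxa2, an endoderm transcription factor, had a log2 fold change of -2.15 (edgeR adjusted p = 3.69e-04).

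**Figure D4:**
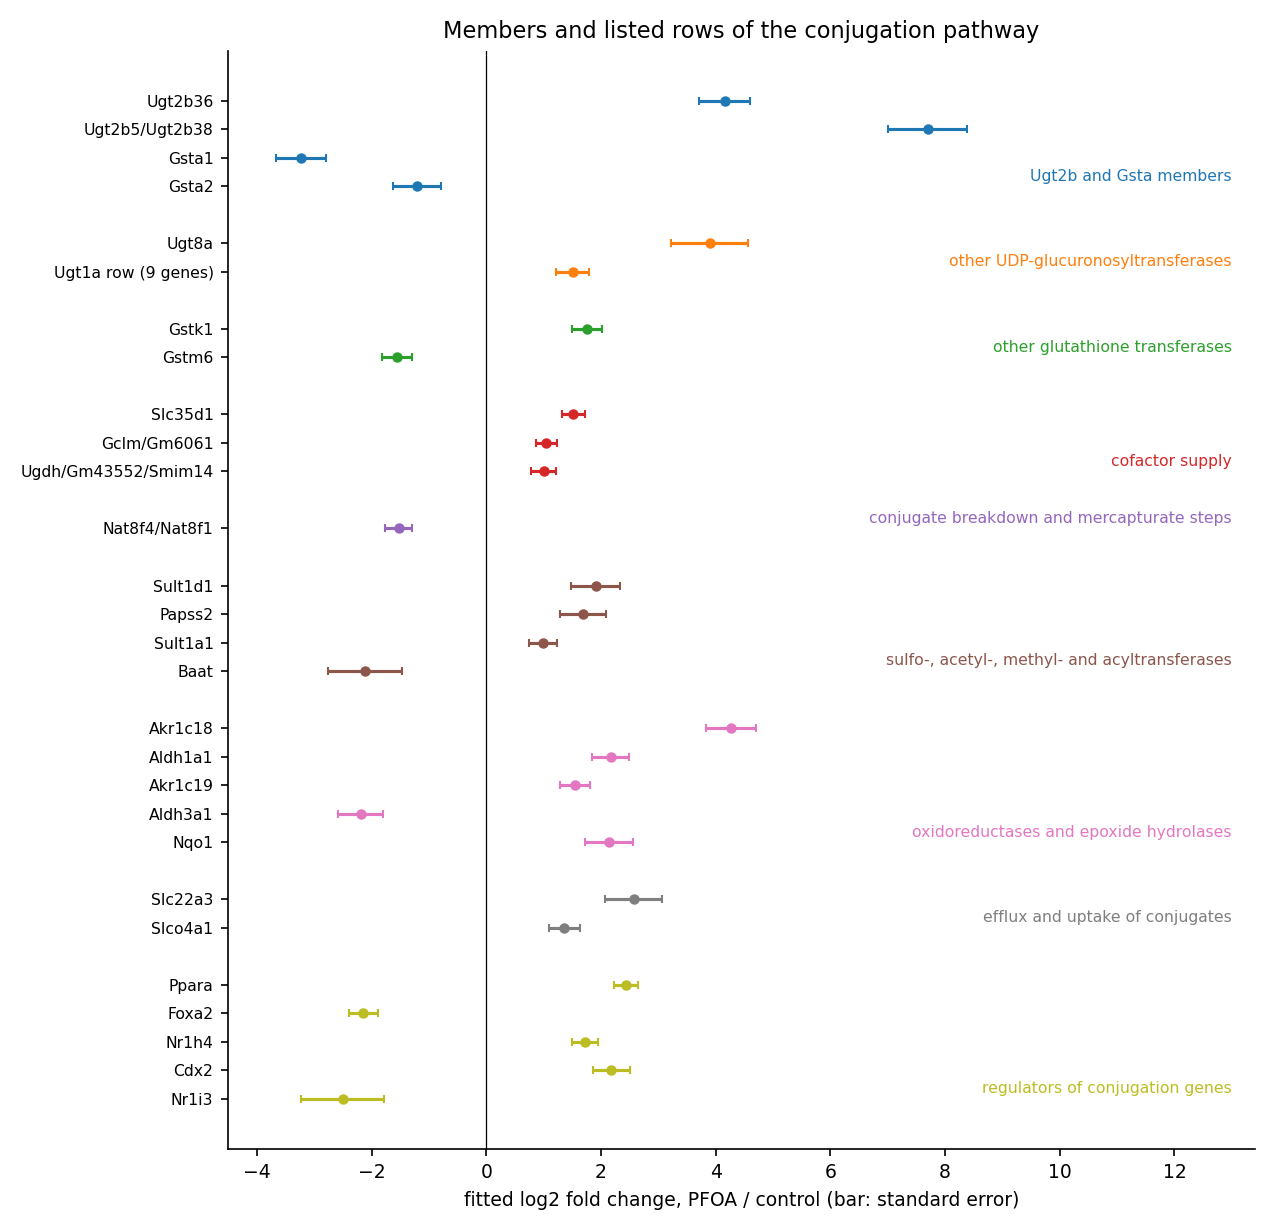
Fitted log2 fold change of PFOA over control (x axis; points, with the standard error as bars, n = 3 per group) for the 4 member rows and the 24 tested rows of 8 conjugation lists, in colours by list. The joined Ugt2b5 and Ugt2b38 row (7.69) lies farthest to the right and Gsta1 (-3.23) farthest to the left of the rows shown.

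The rows whose profile over the 6 libraries was most like a member's were found by the smallest Euclidean distance between centred log2(CPM + 1) values, among 1166 rows with 1 descriptive symbol. They are a description without a test, and in a table of rows that differ they share the group difference from the start. The joined Ugt2b row was closest to Prap1 (distance 1.06), Sptssb (1.11) and Plet1 (1.74). Prap1, a proline-rich acidic protein of the gut epithelium, had 351, 261 and 264 counts in PFOA libraries and 2, 3 and 0 in control libraries. Among the rows closest to Ugt2b36 were A4gnt (0.558) and Lrrtm1 (0.747). Their log2 fold changes were 3.06 and 3.70, against 4.16 for Ugt2b36. The added 1 CPM shrinks differences in rows near 1 CPM, so rows with smaller fold changes can lie close to them.

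Gsta1 was closest to the phosphate transporter gene Slc34a2 (0.394), Ankdd1b (0.439) and the chloride channel gene Ano1 (0.484). Their log2 fold changes were -2.34, -2.89 and -2.76, against -3.23 for Gsta1. Gsta2 was closest to Grem1 (0.346), F13a1 (0.432) and Macc1 (0.558). Grem1, a secreted BMP antagonist, had 588, 281 and 512 counts in PFOA libraries and 1229, 1193 and 1194 in control libraries. F13a1, a coagulation factor subunit, had 268, 79 and 178 counts in PFOA libraries and 399, 403 and 443 in control libraries. Like Gsta2, both were lowest in PFOA replicate 2, a likeness favoured by picking them over the same libraries.

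Listed counts per library ranged from 2136897 to 2269892 in PFOA and from 1771120 to 2155472 in control. Markers of several cell types moved with the groups, as rows of this table must. Of 6 hepatocyte markers, 2 have a row, Alb and Ttr, whose summed level was 7.53 to 28.4 CPM in PFOA and 164.1 to 487.0 CPM in control. Alb had 0, 0 and 1 counts in PFOA libraries and 38, 46 and 20 in control libraries. Ttr had 53, 16 and 28 counts in PFOA libraries and 961, 293 and 518 in control libraries. Of 9 small intestinal markers, 4 have a row (3 higher and 1 lower), with a summed level of 2867 to 5905 CPM in PFOA and 602.1 to 1310 CPM in control. Of 9 absorptive cell markers, 5 have a row (3 higher and 2 lower), at 27458 to 84606 CPM in PFOA and 28643 to 45998 CPM in control. Of 7 enteroendocrine markers, 4 have a row (1 higher and 3 lower), at 421.8 to 624.7 CPM in PFOA and 2810 to 3255 CPM in control. Of 6 pancreatic acinar markers 1 has a row, Cela1, at 55.05 to 69.14 CPM in PFOA and 928.5 to 1579 CPM in control. T and NK cell markers were higher in 5 of 5 rows (of 7 genes), at 102.6 to 276.6 CPM in PFOA and 36.3 to 61.9 CPM in control. Red blood cell markers were lower in 3 of 3 rows, at 120.1 to 206.2 CPM in PFOA and 547.5 to 1436 CPM in control. Of 6 neutrophil and macrophage markers 1 has a row, Ly6g, at 5.60 to 30.02 CPM in PFOA and 571.4 to 967.3 CPM in control. Of 5 Paneth cell markers 1 has a row, Mmp7, at 18.2 to 250.1 CPM in PFOA and 0.45 to 2.42 CPM in control. Of 5 adipocyte markers 3 have a row, and their counts were 0 to 3 in both PFOA replicate 2 and control replicate 3. Cfd had 225, 3 and 522 counts in PFOA libraries and 32, 25 and 3 in control libraries. Of 7 goblet cell markers, 5 have a row, in 7 rows. The 3 higher rows are all pieces of Muc2, and the 4 lower rows are those of Tff3, Fcgbp, Clca1 and Zg16. Of 6 smooth muscle markers 1 has a row, Cnn1, at 1478 to 2094 CPM in PFOA and 2553 to 5922 CPM in control. Markers of B and plasma cells and of neurons and glia are not analysed here. The part of these cell types in the levels of the Ugt2b and Gsta genes was not tested.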

How the data were processed

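Colon RNA of 3 PFOA and 3 control libraries was measured. The labels' protocols name a SMARTER mRNA-Seq kit, while HISAT2, HTSeq and mm10 appear in the submitters' processing notes without versions or roles. The authors deposited 1 table of raw counts per gene row, with positions and lengths. The sources used here do not give the depth, the strand setting, the read length or how the rows were selected. Libraries were matched to columns by the sample descriptions. The members, gene lists and tests were chosen with earlier results of these data known.

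Counts were fitted with edgeR 4.0.16 (R 4.3.3) on the whole table: filterByExpr kept 1608 of 2033 rows, followed by TMM, glmQLFit and glmQLFTest, PFOA against control without covariates, two-sided, Benjamini-Hochberg over the tested rows. This test assumes a table that was not selected on the outcome, and this one was, so a call carries no evidence. TMM scaling assumes that most rows do not change, which this table cannot offer. The scale between the groups, on which folds and CPM rest, is therefore uncertain. The standard error is the absolute log2 fold change divided by the square root of F. Plain folds are ratios of summed counts over TMM-scaled totals, with Clopper-Pearson intervals that cover counting error only. All member rows are named, with at most 4 rows per list by smallest p and the 3 rows most alike; Gm3776, Gm10639, Gm4956, Gm15376, Nqo1 and Nr1i3 were named after their values were seen. A gene of the transporter list and 1 row most like Ugt2b36 are not reported here. The fit was tried on simulated data in which most rows did not change, so that run does not check it on a selected table like this one. Replicates differed by far more than sampling noise (smallest chi-square per degree of freedom 22.4). Coding sequences come from GENCODE M21 and were aligned with Biopython 1.88, taking for each gene the transcript with the longest coding sequence; promoters come from RefSeq (GRCm38.p6), matched by symbol for all 5 genes.

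Alternatives were DESeq2 1.42.0, limma-voom (limma 3.58.1), RLE factors, library totals, 2 other filters, a table without its 20 most abundant rows, a replicate block, each library left out, summed families and a prior count of 2.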

Additional observations from a re-analysis of the deposited data

How the results depend on the processing

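All 4 rows kept their direction under every alternative run, and both Ugt2b rows and Gsta1 kept their call. Most tested rows of the table were called in every alternative counted, so a kept call is no evidence about these genes. With each library left out in turn, 3 to 4 member rows were called, against 1531 to 1663 of the 1678 to 1711 tested rows. The log2 fold change ranged from 6.98 to 8.98 for the joined Ugt2b row, 3.74 to 4.51 for Ugt2b36, -3.58 to -2.93 for Gsta1 and -1.66 to -0.84 for Gsta2, whose call was lost in 3 of the 6 cases, at -0.84, -1.14 and -1.18. With each family summed, 2 of 2 rows were called, at 7.003 for Ugt2b and -1.57 for Gsta, against 1606 of 1606 tested rows. A prior count of 2 gave 3.30 for Ugt2b36, 6.95 for the joined row and -2.59 for Gsta1; these rows have few counts in 1 group, which limits how closely their folds are known. Library totals in place of TMM shifted the log2 values of all tested rows by a median of -0.20, and put Gsta2 at -1.44. RLE factors and library totals rest on the same selected rows as TMM.

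The labels give a replicate number but do not say whether same-numbered libraries of the 2 groups belong together. Their deviations correlated at 0.114, -0.031 and 0.102, and those of libraries with unlike numbers at -0.149 to 0.117. So few libraries cannot decide whether a pairing exists. With the replicate block the 4 member rows stayed called (log2 fold change 7.75, 4.17, -3.25 and -1.29), against 1579 of 1608 tested rows.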

Other observations

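Pseudogenes related to glutathione transferases and to the Ugt1a genes were among the rows of the table. Gm4956, a transcribed pseudogene beside Gsta3 on chromosome 1 that the authors' deposited annotation matches to glutathione transferase, had 1, 12 and 9 counts in PFOA libraries and 55, 79 and 64 in control libraries (log2 fold change -3.13 ± 0.58, SE, 3 libraries per group; edgeR adjusted p = 0.00189). Gm15376, a pseudogene within the Ugt1a locus, had 305, 199 and 253 counts in PFOA libraries and 91, 101 and 72 in control libraries (log2 fold change 1.57 ± 0.31, SE, 3 libraries per group; edgeR adjusted p = 0.00233). Gsta1 and Gsta2 shared 0 windows of 50 bases with Gm4956, and no such lookup was run for Gm15376.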
